A study of Mus musculus with 62 samples.

Results

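The mitochondrial ribosomal protein genes were examined in visceral (VAT) and subcutaneous (SAT) adipose tissue and in liver of *Fam13a* knockout (KO) and wild-type (WT) mice. Members were selected by name alone: every protein-coding gene of the count table whose symbol starts with *Mrpl* or *Mrps* followed by a number. This gave 78 of the 48795 genes in the table, 49 of them with an *Mrpl* and 29 with an *Mrps* symbol, spread over 17 chromosomes. In the counts below, large and small subunit stand for *Mrpl* and *Mrps* symbols. The place of each protein in the ribosome was not checked, and a symbol need not match it. The 62 RNA-seq libraries covered all 3 tissues of males of both genotypes, fed regular chow or a high-fat diet (HFD), and both fat depots of females of both genotypes, fed HFD. Groups held 4 libraries each, apart from the female WT groups with 3. Both genotypes were on a C57BL6 background. The KO line goes back to a KOMP allele of *Fam13a* with a LoxP-flanked exon, and the labels name no Cre and no cell type for the deletion. The study describes these mice as whole-body knockouts. Females had no chow group and no liver group, so diet was compared in males only. The names of the libraries do not show whether each came from a mouse of its own, so p-values measure the spread between these libraries.

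Mitochondria keep ribosomes of their own, which translate the few messenger RNAs encoded by mitochondrial DNA into core subunits of the respiratory chain and of ATP synthase. The ribosomal RNAs are transcribed from mitochondrial DNA, whereas all of the ribosomal proteins are encoded in the nucleus, made in the cytosol and imported. Some of these proteins, such as those of *Mrpl4*, *Mrpl20*, *Mrps6* and *Mrps7*, have counterparts in bacterial ribosomes, and others, such as those of *Mrpl37*, *Mrpl55*, *Mrps22* and *Mrps31*, are found only in mitochondrial ribosomes. NRF1, factors of the ETS family such as GABP, and YY1 are known to bind the promoters of many nuclear genes for mitochondrial proteins.

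The promoters of the members whose values are described for several comparisons are shown first. RefSeq promoter windows on GRCm38.p6, from 250 bases before to 50 bases after the start of a gene, were at hand for 69 of the 78 members. The cores of 3 motifs were searched on both strands, the NRF1 half-site core GCGCANGCG, the ETS core CCGGAAG and the YY1 core AANATGGCG, and a match was counted wherever these letters occurred, including where matches overlapped. The NRF1 core was found in windows of 16 members (23.2%), against 7.03% of all 27025 genes with a window and 10.1% of the protein-coding ones. The ETS core was found in 26 members (37.7%), against 9.93% of all genes and 13.4% of protein-coding genes. For the YY1 core these were 11 members (15.9%), 2.76% and 3.83%. At least 1 of the 3 cores was found in 43 members (62.3%), against 17.2% of all genes and 23.5% of the 16430 protein-coding genes. Of the 67 matches in windows of members, 57 began between 100 bases before and 50 bases after the start.

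The windows below are written 5′ to 3′ on the strand of the gene, with matches in capitals, and positions count the start of the gene as 0. *Mrps22* (chr9:98601630-98601929, minus strand) has an ETS core at -11 and is shown because its diet effect had opposite directions in fat and in liver. *Mrpl27* (chr11:94653541-94653840, plus strand), which was higher on HFD in every tissue, has an ETS core at -55 and a YY1 core at 8. *Mrpl12* (chr11:120484387-120484686, plus strand), with the smallest p-value of the members on HFD in VAT, has an NRF1 core at -80 on the minus strand. *Mrpl57* (chr14:57825989-57826288, plus strand), which was higher on HFD in both fat depots, has an NRF1 core at -57 and an ETS core at 4. *Mrpl45* (chr11:97315466-97315765, plus strand) has NRF1 cores at -120, -38 and 16, the last on the minus strand, and *Mrps26* (chr2:130563507-130563806, plus strand) has an ETS core at -14 on the minus strand and overlapping NRF1 cores at -2 and 4. Both were higher on HFD in liver. *Mrpl28* (chr17:26123253-26123552, plus strand) and *Mrps31* (chr8:22411090-22411389, plus strand), which moved on HFD in SAT and in liver, respectively, held none of these letters and are shown for comparison.
Mrps22: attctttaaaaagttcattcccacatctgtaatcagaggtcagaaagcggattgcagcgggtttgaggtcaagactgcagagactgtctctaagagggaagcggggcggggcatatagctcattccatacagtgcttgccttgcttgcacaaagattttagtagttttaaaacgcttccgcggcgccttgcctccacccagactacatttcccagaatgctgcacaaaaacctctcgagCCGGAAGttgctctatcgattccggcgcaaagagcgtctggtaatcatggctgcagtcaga
Mrpl27: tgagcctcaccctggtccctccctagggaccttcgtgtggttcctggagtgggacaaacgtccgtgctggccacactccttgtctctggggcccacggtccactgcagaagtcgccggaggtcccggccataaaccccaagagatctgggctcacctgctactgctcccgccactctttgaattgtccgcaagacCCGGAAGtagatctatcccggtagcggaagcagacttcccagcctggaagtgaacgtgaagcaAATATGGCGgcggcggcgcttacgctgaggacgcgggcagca
Mrpl12: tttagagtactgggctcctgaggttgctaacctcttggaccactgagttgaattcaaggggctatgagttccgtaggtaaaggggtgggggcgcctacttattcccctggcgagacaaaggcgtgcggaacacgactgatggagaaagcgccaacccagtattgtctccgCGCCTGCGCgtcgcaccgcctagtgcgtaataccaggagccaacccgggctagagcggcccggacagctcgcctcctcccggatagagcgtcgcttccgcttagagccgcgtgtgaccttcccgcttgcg
Mrpl57: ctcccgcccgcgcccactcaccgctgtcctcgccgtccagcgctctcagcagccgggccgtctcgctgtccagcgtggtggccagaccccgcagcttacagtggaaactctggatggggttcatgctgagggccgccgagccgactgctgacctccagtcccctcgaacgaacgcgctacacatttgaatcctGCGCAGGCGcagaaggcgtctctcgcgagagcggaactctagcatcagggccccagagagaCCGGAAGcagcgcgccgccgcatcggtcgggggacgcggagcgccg
Mrpl45: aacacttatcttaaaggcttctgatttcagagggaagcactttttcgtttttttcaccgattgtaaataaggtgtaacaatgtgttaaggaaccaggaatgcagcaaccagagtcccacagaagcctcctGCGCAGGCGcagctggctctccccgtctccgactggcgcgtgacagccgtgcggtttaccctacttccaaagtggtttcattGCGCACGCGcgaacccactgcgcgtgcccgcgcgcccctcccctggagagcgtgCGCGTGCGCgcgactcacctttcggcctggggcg
Mrps26: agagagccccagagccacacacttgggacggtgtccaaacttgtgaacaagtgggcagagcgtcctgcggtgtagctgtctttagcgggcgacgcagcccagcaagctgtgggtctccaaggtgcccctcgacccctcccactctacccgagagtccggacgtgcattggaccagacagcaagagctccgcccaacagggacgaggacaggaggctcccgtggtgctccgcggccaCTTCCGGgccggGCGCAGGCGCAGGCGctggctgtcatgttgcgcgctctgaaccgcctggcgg
Mrpl28: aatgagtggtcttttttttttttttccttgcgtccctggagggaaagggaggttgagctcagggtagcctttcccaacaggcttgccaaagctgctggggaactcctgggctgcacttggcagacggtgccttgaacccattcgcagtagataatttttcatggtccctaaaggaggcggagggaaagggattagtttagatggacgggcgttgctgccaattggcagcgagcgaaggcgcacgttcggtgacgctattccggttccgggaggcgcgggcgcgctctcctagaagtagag
Mrps31: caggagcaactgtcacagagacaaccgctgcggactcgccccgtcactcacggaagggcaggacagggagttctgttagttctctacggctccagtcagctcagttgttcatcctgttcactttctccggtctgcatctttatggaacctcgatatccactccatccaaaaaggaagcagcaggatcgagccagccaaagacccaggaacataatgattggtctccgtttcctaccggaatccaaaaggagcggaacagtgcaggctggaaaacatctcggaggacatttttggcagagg

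The libraries held 4959783 to 28723319 counted reads (median 21694089), of which 1405 to 38955 fell on the members. The share of nuclear ribosomal RNA ranged from 0.0127% to 75.4%, with 1 liver library above 50%. Adipocyte markers such as *Adipoq* and *Plin1* summed to at least 6900 normalised counts (CPM, scaled by TMM library sizes) in every fat library and to at most 104 CPM in liver, and hepatocyte markers such as *Alb* summed to at least 38200 CPM in every liver library. Some fat libraries stood apart by markers of other tissues: 3 SAT libraries had over 1000 CPM of skeletal muscle markers, 7 SAT libraries over 100 CPM of lymph node markers, and 2 VAT libraries of males on chow, KO replicate 1 and WT replicate 2, had 9850 and 3450 CPM of epididymis markers. *Fam13a* itself, counted over the whole gene with no separate value for the targeted exon, was at 10.8 to 39.1 CPM in KO liver and 19.3 to 46.6 CPM in WT liver, and KO against WT gave a log2 fold change of -0.74 (adjusted p = 0.0323) for SAT, -1.01 (adjusted p = 0.474) for VAT and -0.68 (adjusted p = 0.235) for liver. In such whole-tissue libraries, fewer cells of a type and less RNA per cell cannot be told apart.

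Of the 78 members, 77 passed the filter on low counts in every fit, and 64 had at least 10 counts in every library. The exception was *Mrpl53*, which had 0 counts in all 62 libraries. Its exons overlap *Gm42688* on the same strand and *Ccdc142os* on the other. In all, 8 members share exon sequence with another gene on the same strand and 28 with a gene on the opposite strand. Which strand column of the aligner was deposited is not given in the sources used here, so the reads of such pairs may not be fully separate. Counts of calls for members with and without an overlap are given with the diet comparisons.

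Levels of different genes were compared as TPM, a unit that divides the counts by exon length and by the library's total. That total includes nuclear ribosomal RNA, so a high share of it lowers the TPM of the other genes. In WT males on chow this share was 0.0259% to 22.6% in SAT, 0.024% to 25.7% in VAT and 0.0127% to 18.2% in liver. Its part in the levels and SDs below was not tested. Over all libraries the median TPM was highest for *Mrps21* (51.0), *Mrps6* (47.6) and *Mrpl20* (46.1), and, *Mrpl53* aside, lowest for *Mrpl23* (2.06) and *Mrpl19* (3.82). Within a tissue the order was another: in WT males on chow the highest mean was that of *Mrpl24* in SAT (42.8 ± 11.4 TPM, SD, n = 4), *Mrpl10* in VAT (51.7 ± 5.16) and *Mrpl18* in liver (43.3 ± 4.83). In WT males on chow, *Mrps6* was at 20.3 ± 2.95 TPM in SAT, 34.7 ± 12.2 in VAT and 3.29 ± 0.443 in liver (mean ± SD, n = 4 each). *Mrpl20* was at 25.5 ± 2.56 TPM in SAT, 39.5 ± 9.60 in VAT and 33.0 ± 6.27 in liver. The levels of *Mrps6* in liver thus lay far below those in both depots, whereas those of *Mrpl20* in VAT and liver differed by less than the SD in VAT. *Mrps21* was at 32.2 ± 6.63 TPM in SAT, 48.1 ± 14.5 in VAT and 26.8 ± 5.92 in liver, *Mrpl23* at 2.13 ± 0.24, 2.48 ± 0.816 and 1.04 ± 0.134, and *Mrpl19* at 4.09 ± 0.9, 4.05 ± 1.41 and 2.88 ± 0.222. For each of these 3 genes the means of SAT and VAT differed by less than the sum of their SDs.

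The summed CPM of all members gives the level of the family in a library. In SAT of males on chow, the WT libraries were at 961.5, 1045.0, 923.5 and 1071.8 CPM and the KO libraries at 1295.6, 1239.3, 1203.4 and 1050.3. The highest, KO replicate 1, held 21400 CPM of skeletal muscle markers. The other KO libraries held 158 to 831 CPM of these and the WT libraries 67.3 to 328 CPM. On HFD, the WT males were at 1045.2, 1281.7, 1205.1 and 1258.5 CPM and the KO males at 1522.9, 1257.9, 1465.1 and 1337.9. The KO and WT ranges overlapped on both diets, on chow through a single KO library. In SAT of females on HFD, the WT libraries were between 1149.7 and 1278.9 CPM and the KO libraries between 1079.6 and 1313.8. VAT of males on chow showed the narrowest spread, 1188.3 ± 13.7 CPM in WT and 1206.4 ± 39.0 in KO (mean ± SD, n = 4). On HFD, VAT was at 1167.6 ± 140.2 CPM in WT and 1280.6 ± 128.8 in KO males. The lowest of these WT libraries, replicate 1 at 998.6 CPM, was the only VAT library on another flow cell and held 40.1% nuclear ribosomal RNA. In females on HFD, where the KO mean was below the WT mean, VAT was at 1329.6 ± 108.8 CPM in WT (n = 3) and 1294.8 ± 98.3 in KO (n = 4). In liver the 4 groups had means between 956.5 and 1015.2 CPM, with SDs of 28.5 to 75.2.

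**Figure D1:**
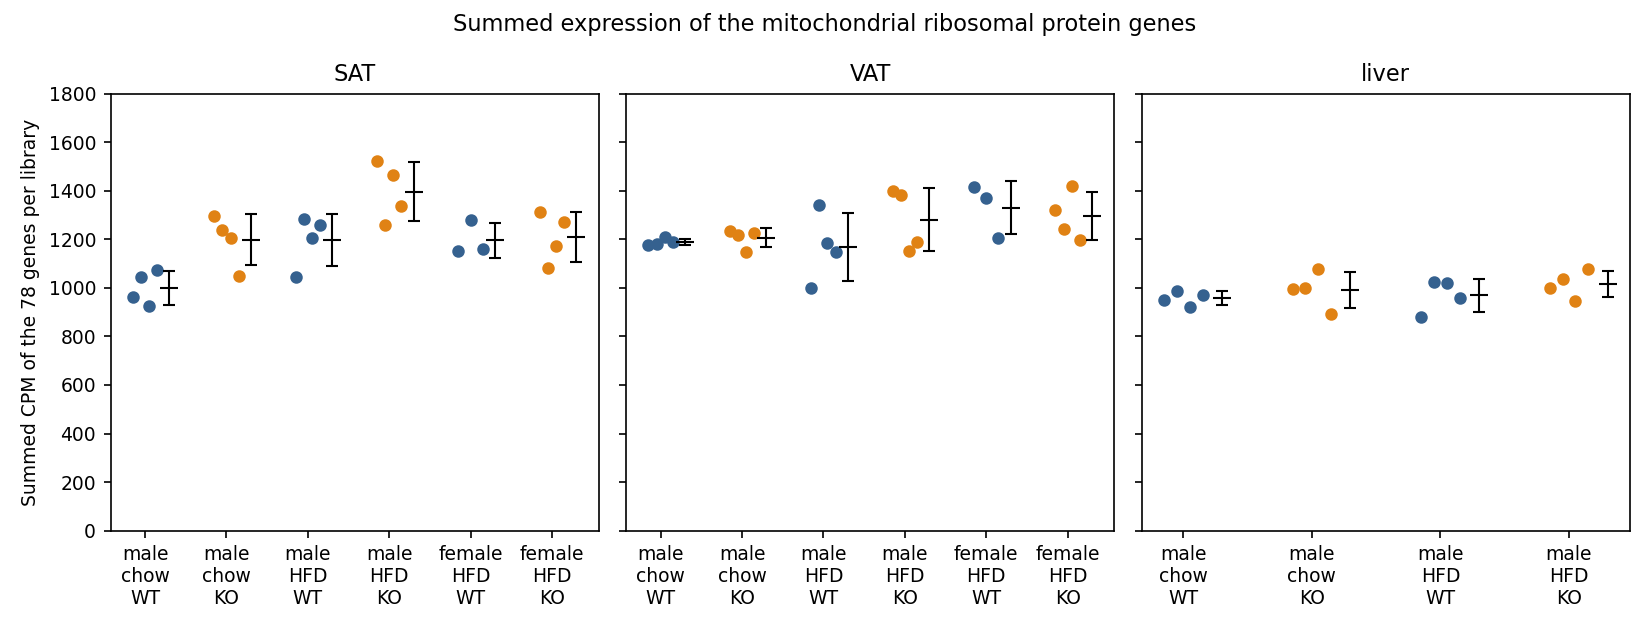
Summed CPM of the 78 genes in each library (points; WT blue, KO orange) by tissue, sex, diet and genotype, with the mean and SD of each group as a bar on a linear axis from 0. In SAT of males the KO mean was above the WT mean on each diet (1197.1 against 1000.4 CPM on chow, 1395.9 against 1197.6 on HFD), whereas the 4 liver groups lay between 877.7 and 1076.4 CPM.

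To describe the effect of the *Fam13a* KO on these genes, KO was compared with WT in the 23 SAT libraries with diet and sex as covariates. In SAT, 11 of the 77 members (14.3%) were higher in KO and 0 lower in edgeR's quasi-likelihood test at a false discovery rate (FDR) of 10% over all genes. Over all 18366 genes tested, 3.45% were higher and 0.888% lower. The log2 fold change was above 0 for 74 of the 77 members, with a median of 0.20, against -0.005 over all genes. Effects were small: they ranged from -0.045 for *Mrpl33* to 0.49 for *Mrpl55*, which is 1.40-fold. At an unadjusted p under 0.05 there were 37 of the 77 members, against 3266 of the 18366 genes. The choice of this family followed earlier results of these data, so its count in SAT is a description.

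*Mrpl55* (chromosome 11, 59202486 to 59206134, GRCm38), a large-subunit protein without a bacterial counterpart, had the smallest p-value. In SAT of males on chow it was at 5.15, 4.87, 5.24 and 6.96 CPM in WT and 10, 7.71, 8.57 and 8.28 CPM in KO. On HFD, males were at 5.80, 6.87, 8.45 and 6.34 CPM in WT and 11.3, 10.3, 11.7 and 10.4 CPM in KO. Every male KO library was thus above every male WT library of the same diet. Females did not show this separation, with *Mrpl55* at 8.38, 6.98 and 6.97 CPM in WT and 8.52, 6.45, 7.79 and 9.20 CPM in KO. Over all SAT libraries *Mrpl55* rose by 0.49 on the log2 scale (SE 0.099, adjusted p = 0.0157, edgeR).

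*Mrps18b*, which is related to *Mrps18a* and *Mrps18c*, was between 6.11 and 10 CPM in WT and between 7.81 and 13 CPM in KO and rose by 0.38 (SE 0.091, adjusted p = 0.0357). *Mrpl20* was at 18.2, 20.1, 15.1 and 17.5 CPM in WT and 25.6, 34.2, 28.6 and 24.7 CPM in KO males on chow, without overlap. On HFD, 1 of 4 KO males (32.9 CPM) lay within the WT range of 26.8 to 35.5 CPM. *Mrpl20* rose by 0.41 (SE 0.099, adjusted p = 0.0368) and *Mrpl28*, with a range of 11.2 to 24 CPM in WT and 14.0 to 30.9 CPM in KO, by 0.37 (SE 0.089, adjusted p = 0.0368). *Mrps7*, a protein of the small-subunit head, rose by 0.30 (SE 0.08, adjusted p = 0.0536). The other 6 were *Mrpl41* (0.33), *Mrps22* (0.36), *Mrps11* (0.32), *Mrpl1* (0.28), *Mrpl10* (0.24), whose protein carries the factor-binding stalk, and *Mrpl50* (0.24), with adjusted p-values from 0.0586 to 0.0987. The large subunit accounted for 7 of its 48 tested members and the small subunit for 4 of 29.

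When KO and WT were compared within each group of sex and diet, 26 members were higher and 0 lower in KO in SAT of males on chow, where 18.5% of all genes were higher and 12.7% lower. The median log2 fold change of the members was 0.25. *Mrps6* was at 13.6, 14.7, 11.5 and 11.8 CPM in WT and 25.3, 48.6, 20.5 and 15.8 CPM in KO males on chow. All 4 KO libraries were above the WT libraries, with 1 of them far above the other KO libraries, and *Mrps6* rose by 1.10 (SE 0.23, adjusted p = 0.00684). *Mrps6* shares exon sequence with *Slc5a3* on the same strand, so the reads of the pair may not be separate. *Mrpl20* (0.68, adjusted p = 0.0102) and *Mrpl55* (0.64, adjusted p = 0.0101) rose as well. The count fell to 16 without KO replicate 1, the library rich in muscle markers, or without WT replicate 3. It was 17 without KO replicate 3 and 44 without KO replicate 4.

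In SAT of males on HFD, edgeR called 0 members (0% of all genes), with a median of 0.23 and 73 of 77 fold changes above 0. An unadjusted p under 0.05 was found for 25 members, against 1606 of 18366 genes. The lowest adjusted p there was 0.277, for *Mrpl55* (log2 fold change 0.67). In SAT of females on HFD edgeR called 0 members (0.0109% of all genes) with a median of 0.03. There, 2 members were at an unadjusted p under 0.05, against 995 of 18366 genes. The difference between sexes was not tested. For the difference of the KO effect between diets, edgeR and limma-voom called 0 members in SAT (0.0173% of all genes by edgeR). An unadjusted p under 0.05 in edgeR was found for 4 members, against 3010 of 17292 genes. The lowest adjusted p was 0.176 for *Mrps6* (difference -1.16).

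Markers of other cells moved with genotype in SAT of males on chow. Of 10 lymph node markers, 9 were tested in SAT and *Ccl21a* was at 0 in every library. They summed to 344 to 994 CPM in WT and 8.3 to 684 CPM in KO males on chow, with the B cell gene *Ms4a1* at a median of 149 CPM in WT and 5.61 CPM in KO. The 10 adipocyte markers, all tested, summed to 7420 to 15500 CPM in WT and 13700 to 22100 CPM in KO. Skeletal muscle markers exceeded 1000 CPM in 3 SAT libraries, 1 of KO and 2 of WT. These were male chow KO replicate 1 (21400 CPM), male HFD WT replicate 4 (2210 CPM) and female HFD WT replicate 2 (5020 CPM). With an adipocyte marker score as covariate 2 members remained above the threshold and the median fell to 0.10. With a lymph node score 6 remained. Without the 7 libraries above 100 CPM of lymph node markers, 10 remained. Those 7 included every WT male on chow, so that fit took the KO effect from HFD libraries and did not test males on chow. Without the 3 muscle-rich libraries the count was 7. Without the male HFD libraries WT replicate 1 or KO replicate 1 the count was 4, without the female KO replicate 2 it was 32, and with the HFD libraries alone it was 0. This KO replicate 1 was the only SAT library on another flow cell and had the highest family sum of the HFD males, 1522.9 CPM. This WT replicate 1 was on a lane apart from the other WT males on HFD and had the lowest sum, 1045.2 CPM. Flow cell or lane and the single library cannot be told apart here.

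**Figure D2:**
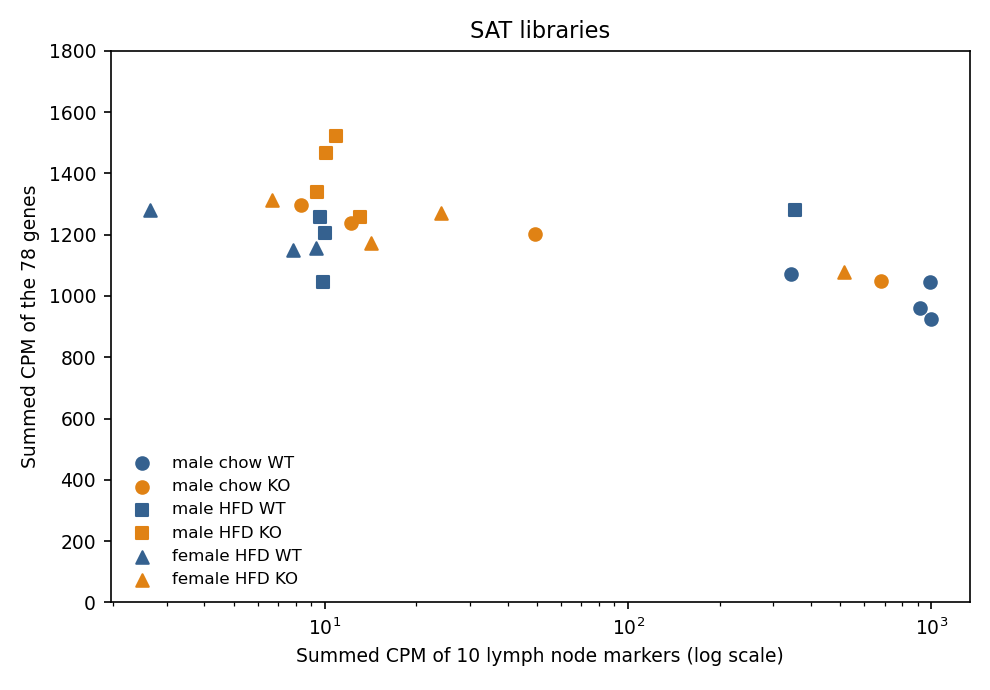
Each point is a SAT library, with the summed CPM of 10 lymph node markers on a log axis and the summed CPM of the 78 genes on a linear axis. The 4 WT males on chow lay between 344 and 994 CPM of lymph node markers and between 923.5 and 1071.8 CPM of the family, and the single chow KO library in that range of markers (684 CPM) had the lowest family sum of its group, 1050.3 CPM.

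In VAT, edgeR called 0 of the 77 members between KO and WT, as did DESeq2 and limma-voom. Unadjusted p-values of edgeR under 0.05 were found for 7 members, against 1598 of 18975 genes. Over all genes, 0.00527% were called. The median log2 fold change of the members was 0.07 (-0.02 over all genes), and 51 of 77 were above 0. The smallest p-values belonged to *Mrpl20* (0.28, adjusted p = 0.411), *Mrps14* (0.32, adjusted p = 0.468), *Mrpl38* (-0.27, adjusted p = 0.478), *Mrpl27* (0.22, adjusted p = 0.507) and *Mrpl41* (0.23, adjusted p = 0.52). Within groups the edgeR test called 0 members in males on chow, in males on HFD and in females on HFD. Of all genes, 0.29%, 0% and 0.00527% were called, respectively. Unadjusted p-values under 0.05 were found for 14, 3 and 0 members, against 2544, 2176 and 282 of 18975 genes. The medians of the members were 0.105, 0.118 and -0.032, and in females 50 of 77 fold changes were below 0. For the difference of the KO effect between diets in VAT, 0 members were called by edgeR and limma-voom (0.00577% of all genes by edgeR). There, 4 members were at an unadjusted p under 0.05 in edgeR, against 1587 of 17330 genes. In the 32 male libraries of both depots fitted together, 15 members were higher and 0 lower in KO, against 2.62% of all genes that were higher, with a median of 0.20. *Mrpl20* (0.44, adjusted p = 0.0113) and *Mrpl55* (0.45, adjusted p = 0.0192) led again, but this fit shares its male SAT libraries with the SAT comparison.

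In liver, edgeR and limma-voom called 0 members and DESeq2 called 1. At an unadjusted p under 0.05 in edgeR there were 3 members, against 1416 of 14476 genes. Over all genes 0% were called. The median was 0.10 (-0.001 over all genes), and 66 of 77 log2 fold changes were above 0. *Mrpl34* (0.33, adjusted p = 0.309), *Mrpl22* (0.30, adjusted p = 0.406), *Mrpl44* (0.17, adjusted p = 0.442), *Mrpl4* (0.19, adjusted p = 0.518) and *Mrps22* (0.23, adjusted p = 0.571) had the smallest p-values. *Mrpl44*, an RNase III-like protein of the large subunit, shares exon sequence with *Wdfy1* on the other strand, whose own log2 fold change in liver was 1.16 (adjusted p = 0.232). Within males on chow 0 members were called by edgeR (0.00691% of all genes), and on HFD likewise 0 (0.0622%). Unadjusted p-values under 0.05 were found for 4 and 2 members, against 1194 and 1171 of 14476 genes. The difference of the KO effect between diets gave 0 members in edgeR and limma-voom, with 0% of all genes called. Here 0 members were at an unadjusted p under 0.05 in edgeR, against 928 of 14476 genes.

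Whether the KO effect differed between tissues was tested in the 48 male libraries. EdgeR and limma-voom called 0 members for VAT against SAT, for liver against SAT and for liver against VAT. Of all genes, edgeR called 0.0515%, 0.0463% and 0.0154%, respectively. Its unadjusted p was under 0.05 for 14, 18 and 4 members, against 2968, 2282 and 1280 of 19424 genes. The median difference of the members was -0.18 for VAT minus SAT and -0.24 for liver minus SAT. A KO log2 fold change above 0 in all 3 tissues was found for 42 members. The higher values of KO in SAT are thus not shown to be particular to SAT.

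**Figure D3:**
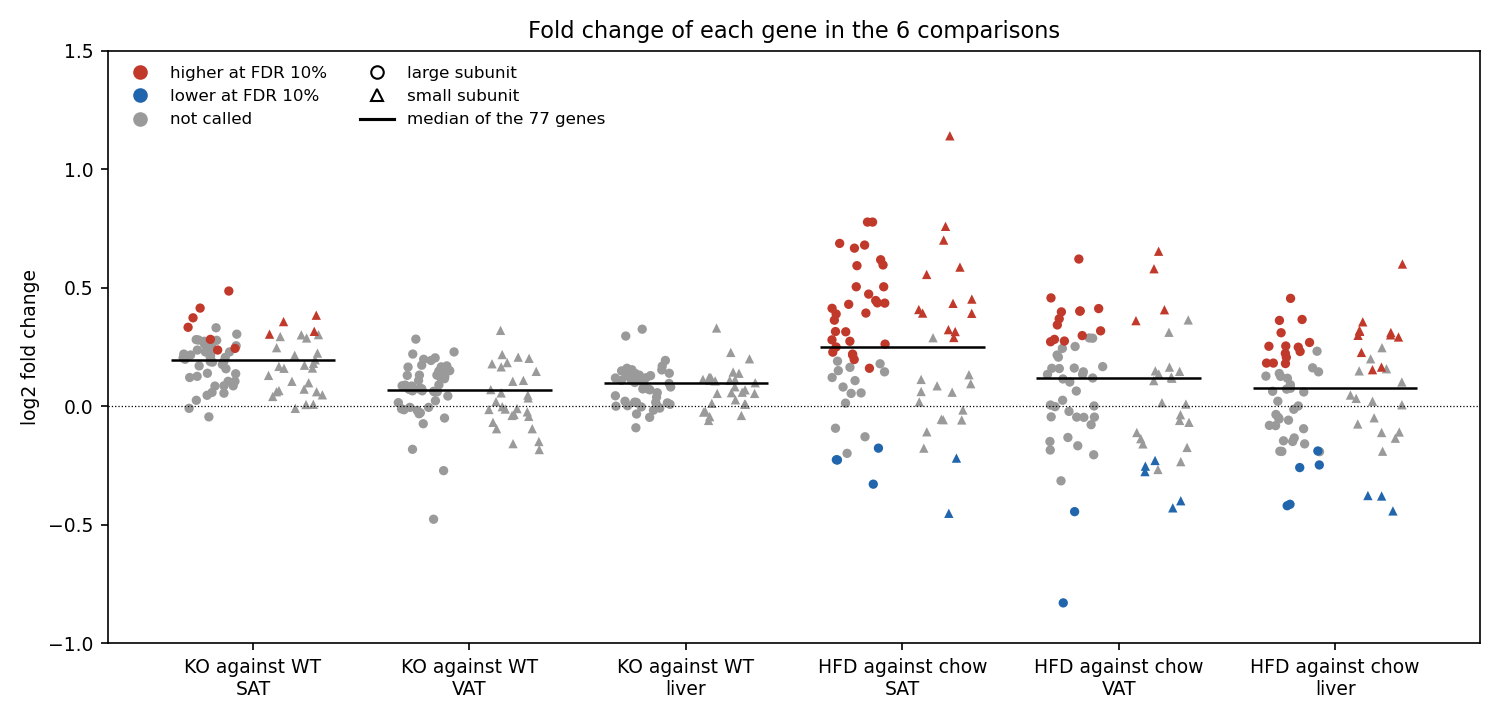
Log2 fold change of each of the 77 tested genes in the 6 comparisons, coloured by the call at an FDR of 10%, with the median as a line. Circles are *Mrpl* genes (large subunit by symbol) and triangles *Mrps* genes (small subunit by symbol). For KO the members lay close together, with medians of 0.20, 0.07 and 0.10, whereas for HFD they spread from -0.83 to 1.14 and included calls in both directions.

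HFD was compared with chow in the 16 male libraries of each tissue, with genotype as a covariate. Libraries on chow and on HFD were on different lanes in every tissue, so diet and sequencing lane cannot be told apart. In SAT, 43 members were higher and 6 lower on HFD, 55.8% and 7.79% of the 77, against 28.5% and 29.6% of all genes. The median log2 fold change was 0.25, against -0.02 over all genes. The large subunit had 30 members higher and 4 lower of 48, and the small subunit 13 higher and 2 lower of 29. Of the 32 members with an exon overlap, 18 were higher and 3 lower, and of the 45 without one, 25 and 3.

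*Mrpl28*, a protein with a bacterial counterpart, had the smallest p-value in SAT. It was at 11.3, 12.0, 11.2 and 13.1 CPM in WT and 17.8, 23.6, 15.9 and 14.0 CPM in KO males on chow, and at 17.2, 24, 22.0 and 24 CPM in WT and 30.9, 27.1, 29.7 and 27.8 CPM in KO males on HFD. Within each genotype, all HFD libraries were above all chow libraries, and *Mrpl28* rose by 0.78 (SE 0.103, adjusted p = 7.4e-05). *Mrpl27* was between 6.82 and 16.6 CPM on chow and between 16.4 and 22.9 CPM on HFD and rose by 0.78 (SE 0.122, adjusted p = 0.000232). *Mrpl20* rose by 0.68 (SE 0.1, adjusted p = 0.000141), from a median of 22.4 to 34.4 CPM. *Mrps6* had the largest rise, 1.14. In WT it lay between 11.5 and 14.7 CPM on chow and between 40.2 and 46.3 CPM on HFD (1.73, SE 0.26, adjusted p = 0.000404). In KO it lay between 15.8 and 48.6 CPM on chow and between 34.5 and 47.8 CPM on HFD, with overlap (0.58, SE 0.249, adjusted p = 0.121). The difference between the genotypes in this diet effect was -1.16 (SE 0.356, adjusted p = 0.176) and did not pass the test. *Slc5a3*, which shares its exons with *Mrps6*, rose by 0.94 (adjusted p = 0.01). Among the others were *Mrps11* (0.70), *Mrpl34* (0.69), *Mrpl54* (0.67), *Mrpl57* (0.60), *Mrpl4* (0.59), *Mrpl10* (0.50) and *Mrpl13* (0.45), with adjusted p-values from 0.000318 to 0.000621. The 6 lower genes were *Mrps35* (-0.45, SE 0.106, adjusted p = 0.00325), *Mrpl47* (-0.33), *Mrpl9* (-0.23), *Mrpl24* (-0.23), *Mrps2* (-0.22) and *Mrpl15* (-0.18). *Mrps35*, a small-subunit protein of the mitochondrial ribosome, was between 14.3 and 21.5 CPM on chow and between 11.7 and 16.4 CPM on HFD, so its ranges overlapped.

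Within genotypes, 41 members were called in SAT of WT (56.3% of all genes) and 23 in SAT of KO (26.1% of all genes), 37 and 22 of them higher. The difference between genotypes is the interaction above, for which 0 members were called. Lymph node markers, which stood at 344 to 994 CPM in WT males on chow, were at 9.39 to 13 CPM in all HFD males but 1 WT library (354 CPM), and all 9 tested markers fell on HFD. Of 8 hepatocyte markers in SAT, 7 were higher on HFD and 1, *Cyp2e1* (-2.95), was lower, with a median of 2.87. Their sums were 733 to 1850 CPM on chow and 186 to 481 CPM on HFD. The part of the hepatocyte markers in the values of the members was not tested. Without the 6 male libraries above 100 CPM of lymph node markers, 5 of them WT, 17 members were higher and 1 lower. Those 6 included every WT library on chow, so that fit took the diet effect from KO libraries alone and did not test WT. With a lymph node score as covariate 24 members were higher and 1 lower. The shares of all genes were not set beside these refits. The directions of the named genes were the same in these fits.

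In VAT, 17 members were higher and 7 lower on HFD, 22.1% and 9.09%, against 21% and 23.2% of all genes. The share of higher members was thus near that of all genes, and the share of lower ones below it. With upper-quartile scaling the split was 12 and 12. The median was 0.12 (-0.04 over all genes). The large subunit had 13 higher and 2 lower, the small subunit 4 and 5. The adipocyte markers summed to 7860 to 22300 CPM on chow and 6900 to 13800 CPM on HFD, with 9 of 10 lower and 1 higher, and all 8 macrophage markers rose, by a median of 1.87 on the log2 scale. Of 8 hepatocyte markers in VAT, 5 were higher and 1, *Cyp2e1* (-4.79), was lower, with a median of 1.94. Their sums were 584 to 4310 CPM on chow and 25.9 to 398 CPM on HFD. The part of these shifts in the values of the members was not tested beyond the adipocyte score, which left 11 members higher and 5 lower.

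*Mrpl12*, whose protein forms the stalk of the large subunit and is also known to bind the mitochondrial RNA polymerase, was at 6.96, 5.62, 6.0 and 5.98 CPM in WT and 6.56, 6.12, 7.46 and 10.1 CPM in KO males on chow. On HFD it was at 10.4, 10, 10.2 and 10.6 CPM in WT and 11.3, 12.2, 11.4 and 8.0 CPM in KO. The diets did not overlap in WT, and in KO 1 library of each diet lay within the range of the other. *Mrpl12* rose by 0.62 (SE 0.129, adjusted p = 0.00162). *Mrps22* rose by 0.65 (SE 0.147, adjusted p = 0.00286), from 7.39 to 10.4 CPM on chow to 8.54 to 17.9 CPM on HFD, and *Mrpl20* by 0.37 (SE 0.113, adjusted p = 0.0185), with 21.3 to 40.6 CPM on chow and 28.4 to 43.8 CPM on HFD. The other named rises were those of *Mrps36* (0.58), whose product is now regarded as part of the oxoglutarate dehydrogenase complex, *Mrpl19* (0.46), *Mrpl54* (0.41), *Mrps28* (0.41), *Mrpl18* (0.40), *Mrpl16* (0.32) and *Mrpl4* (0.28).

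*Mrps34*, a small-subunit protein specific to mitochondria, was the 1 member of 77 in VAT whose diets did not overlap, where all HFD libraries were below all chow libraries for 3.37% of all genes. It was at 9.68 to 13.2 CPM on chow and 6.47 to 9.12 CPM on HFD and fell by 0.43 (SE 0.105, adjusted p = 0.00524). It shares exons with *Nme3*. *Mrpl9* fell by 0.45 (adjusted p = 0.00362), and *Mrps35* by 0.40 (SE 0.149, adjusted p = 0.0471), followed by *Mrps9* (-0.28), *Mrps26* (-0.25) and *Mrps10* (-0.23). *Mrpl37* had the largest fitted fall, 0.83 (SE 0.319, adjusted p = 0.0535), and this size rested on a single library. It was at 17.0 to 26.2 CPM in 7 of the 8 chow libraries and at 106 CPM in WT replicate 2, and at 14.7 to 18.6 CPM on HFD. That library also held epididymis markers at 3450 CPM, and without it and the other epididymis-rich library 16 members were higher and 8 lower. Without it *Mrpl37* was still called, with a log2 fold change of -0.35. Within genotypes, 18 members were called in VAT of WT (33.1% of all genes), 9 in each direction, and 4 in VAT of KO (25.4% of all genes), all of them higher.

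In liver, 25 members were higher and 8 lower on HFD, 32.5% and 10.4%, against 20.6% and 20.2% of all genes. With upper-quartile scaling the split was 19 and 13. The median was 0.08 (-0.004 over all genes). The large subunit had 14 higher and 5 lower, the small subunit 11 and 3. Of 8 hepatocyte markers, 2 were higher and 5 lower, with sums of 38200 to 61800 CPM on chow and 46700 to 59900 CPM on HFD. Of 7 tested macrophage markers, 5 were lower and 0 higher, with sums of 172 to 225 CPM on chow and 119 to 176 CPM on HFD. Their part in the values of the members was not tested. *Mrps31*, a small-subunit protein specific to mitochondria, had the smallest p-value. It was at 23.4, 21.5, 23.6 and 19.3 CPM in WT and 23.8, 21.6, 20.6 and 18.9 CPM in KO males on chow, and at 16, 17.2, 16.6 and 14.2 CPM in WT and 15, 17.1, 13.5 and 15.6 CPM in KO males on HFD. The diets did not overlap, the genotypes did, and *Mrps31* fell by 0.44 (SE 0.067, adjusted p = 5.46e-05). *Mrpl17* was the only other member without overlap, at 25.1 to 30.8 CPM on chow and 18.9 to 24.4 CPM on HFD, and fell by 0.25 (adjusted p = 0.00325). These were 2 of 77 members, against 3.47% of all genes with all HFD libraries below all chow libraries.

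*Mrpl20* fell by 0.41 in liver (SE 0.102, adjusted p = 0.00406), from a median of 23 to 15.7 CPM, and *Mrps22* by 0.38 (SE 0.126, adjusted p = 0.0255), from 11.4 to 8.73 CPM. *Mrpl47* (-0.42), *Mrps33* (-0.38), *Mrpl15* (-0.26) and *Mrpl24* (-0.19) were also lower. Among the rises, *Mrpl14*, a protein at the interface of the subunits, was between 6.26 and 8.88 CPM on chow and between 7.69 and 12.1 CPM on HFD and rose by 0.46 (SE 0.096, adjusted p = 0.00112). *Mrpl28* rose by 0.36 (SE 0.077, adjusted p = 0.00128), with 11 to 16.2 CPM on chow and 15.4 to 19.5 CPM on HFD. Further rises were those of *Mrpl45* (0.37), known to anchor the ribosome to the inner membrane, *Mrps26* (0.36), *Mrpl49* (0.31), *Mrps7* (0.31), *Mrps18a* (0.30), *Mrps21* (0.30), *Mrps25* (0.29) and *Mrpl52* (0.25). Within genotypes, 16 members were called in liver of WT (30% of all genes), 11 of them higher, and 12 in liver of KO (21.6% of all genes), 8 of them higher.

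**Figure D4:**
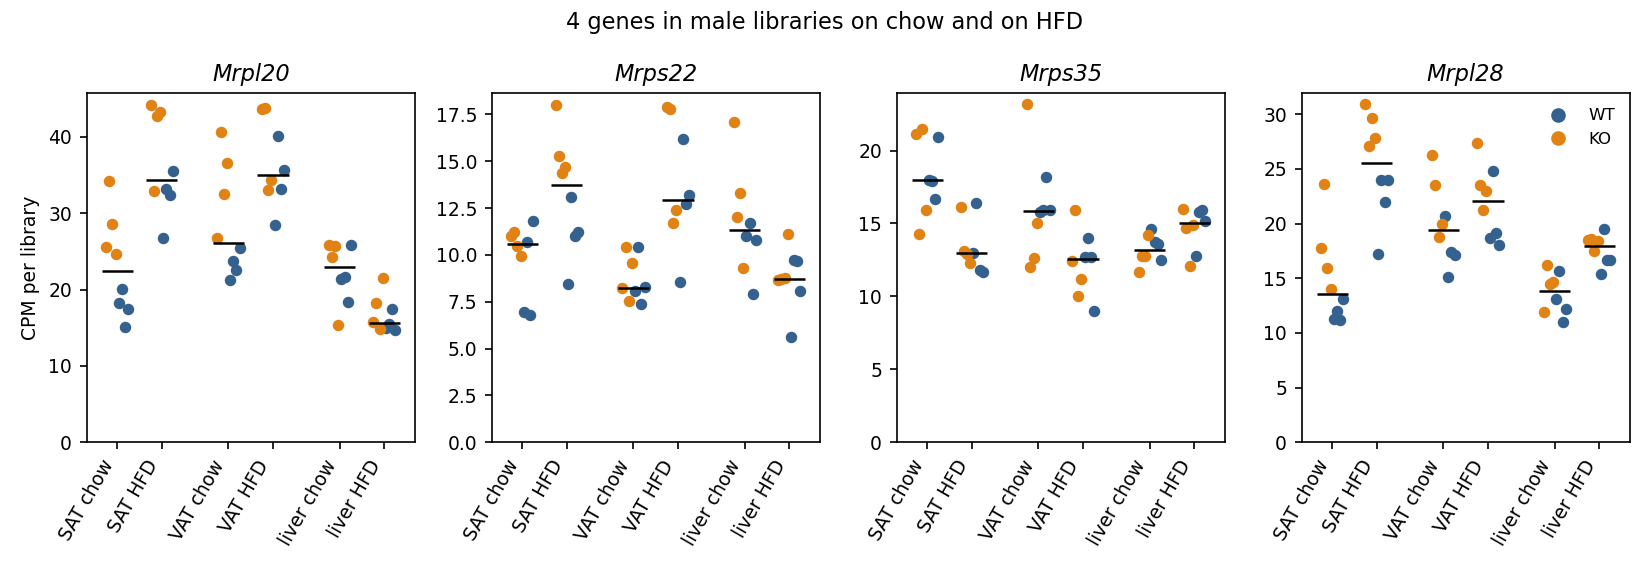
CPM of *Mrpl20*, *Mrps22*, *Mrps35* and *Mrpl28* in each male library (WT blue, KO orange) on chow and on HFD in the 3 tissues, with the median of the 8 libraries as a line on linear axes from 0. The median of *Mrpl20* moved from 22.4 to 34.4 CPM in SAT and from 23 to 15.7 CPM in liver, and that of *Mrpl28* from 13.8 to 18 CPM in liver.

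The diet responses of the tissues were compared with each other. Of all genes, 28.5% were higher and 29.6% lower in SAT, 21% and 23.2% in VAT, and 20.6% and 20.2% in liver. Overlaps between tissues were counted for the members only and not over all genes. The counts below thus describe the members and show no trait particular to them. Of the 77 members, 66 were called in at least 1 tissue and 6 were higher in all 3, namely *Mrpl4*, *Mrpl14*, *Mrpl16*, *Mrpl27*, *Mrpl34* and *Mrps36*, and 0 were lower in all 3. The genes higher in both SAT and VAT numbered 14, which is 32.6% of the 43 in SAT and 82.4% of the 17 in VAT. Those higher in both SAT and liver numbered 15, 34.9% of the 43 and 60% of the 25 in liver, and those higher in both VAT and liver 6, 35.3% of the 17 and 24% of the 25. Calls in opposite directions were found for 6 members. *Mrpl20* and *Mrps22* were higher in both depots and lower in liver, *Mrps35* was lower in both depots and higher in liver, *Mrpl37* and *Mrps26* were lower in VAT and higher in liver, and *Mrps34* was higher in SAT and lower in VAT. *Mrps31* and *Mrps35* were the members whose fitted change went against the sign of the family median most often, in 5 of the 6 comparisons, and 18 members did so in 0.

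The difference of the diet effect between tissues was tested in the 48 male libraries. Between VAT and SAT it was higher in VAT for 3 members and lower for 15, against 17.8% and 19.1% of all genes. *Mrps6* had the smallest p-value (difference -0.99, SE 0.214, adjusted p = 0.00055), then *Mrps34* (-0.73, adjusted p = 0.00108), and *Mrpl12* (0.49, adjusted p = 0.0164) was the leading gene in the other direction. Between liver and SAT the effect was higher in liver for 3 members and lower for 18, against 15.5% and 12.2% of all genes. *Mrpl20* differed by -1.05 (SE 0.165, adjusted p = 2.07e-05), *Mrps22* by -0.74 (adjusted p = 0.00794) and *Mrps35* by 0.67 (adjusted p = 0.00467). Between liver and VAT it was higher in liver for 14 and lower for 9, against 18.8% and 14.8% of all genes. *Mrps22* differed by -1.01 (SE 0.205, adjusted p = 0.000265) and *Mrpl20* by -0.75 (adjusted p = 0.000651), whereas *Mrps26* (0.64, adjusted p = 0.000976), *Mrpl45* (0.71, adjusted p = 0.00173) and *Mrps34* (0.68, adjusted p = 0.00244) differed in the other direction. With DESeq2's size factors the liver and VAT split was 13 and 14.

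**Figure D5:**
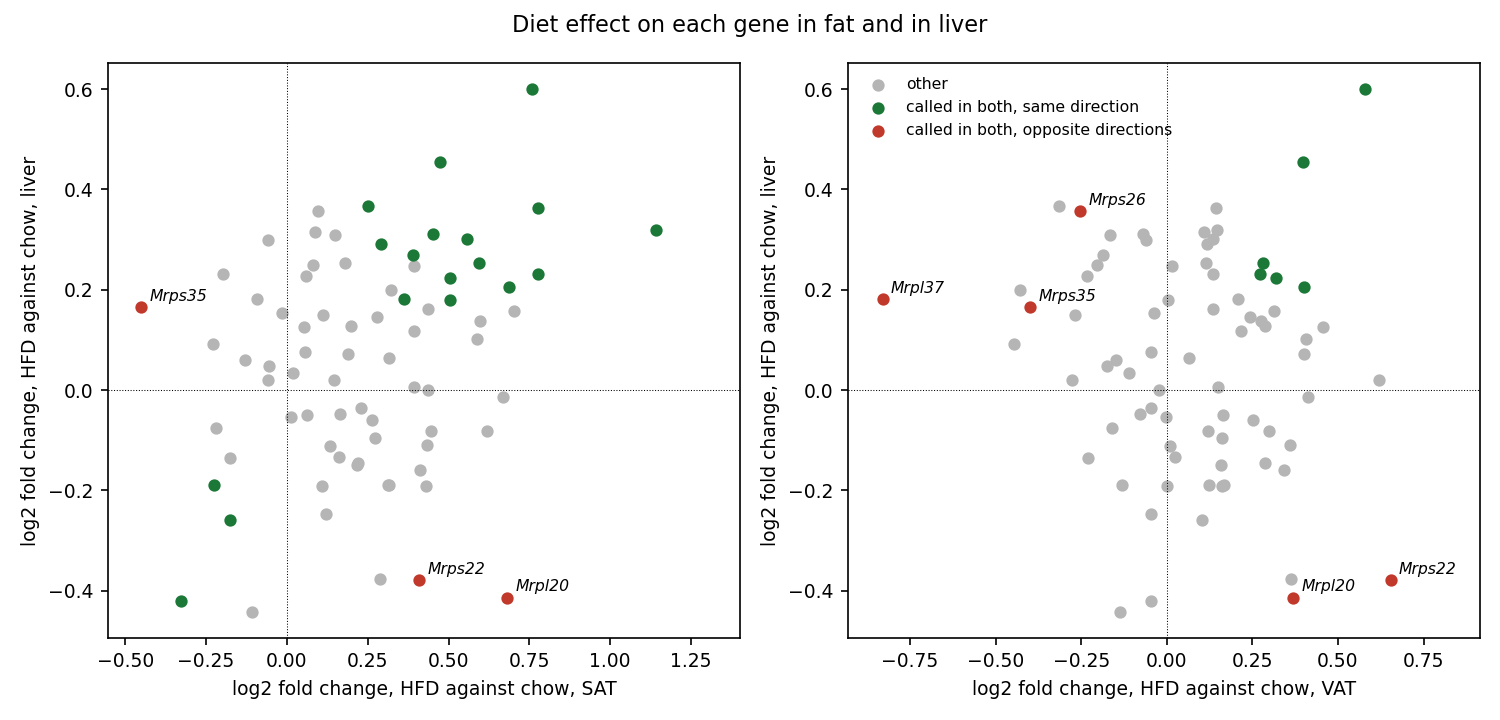
Log2 fold change on HFD of each of the 77 genes in SAT (left) and VAT (right) against that in liver, with genes called in both tissues coloured by whether the directions were the same. *Mrpl20* and *Mrps22* sit at the lower right of both panels, at -0.41 and -0.38 in liver, and *Mrps35* at the upper left, at -0.45 in SAT and -0.40 in VAT.

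Shorter members had higher fold changes. Across the 77 members, Spearman's rho between merged exon length and log2 fold change was -0.50 for KO in SAT, -0.48 in VAT and -0.34 in liver, and -0.57, -0.36 and -0.25 for HFD in the same order. Across all genes it was between -0.083 and 0.003. These values describe genes that share libraries and are not independent. The median exon length of the members was 2533 bases, against 4402 for protein-coding genes tested in SAT for KO.

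The promoter matches shown above were set against the calls. In SAT, a core was present in 23 of 38 members with a window that were higher on HFD (60.5%), in 1 of 4 that were lower (25%) and in 18 of 26 that were not called (69.2%). For KO in SAT it was present in 4 of 11 higher members (36.4%) and in 38 of 57 not called (66.7%). In liver on HFD it was present in 12 of 22 higher (54.5%), 3 of 7 lower (42.9%) and 27 of 39 members not called (69.2%), and in VAT on HFD in 8 of 12 higher (66.7%), 4 of 5 lower (80%) and 30 of 51 not called (58.8%). In SAT and liver the called members thus held a core less often in number than the others, and in VAT more often, and no test was made.

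Other genes of mitochondrial translation were described by 7 lists. In the KO comparison in SAT, 1 of 5 other ribosomal subunits (*Aurkaip1*, 0.25), 1 of 15 translation factors (the elongation factor *Gfm1*, 0.27), 2 of 25 assembly factors (*Trub2*, 0.22, and *Mpv17l2*, 0.50), 1 of 22 aminoacyl-tRNA synthetases (*Gars*, 0.33) and 1 of 14 regulators (the mitochondrial RNA polymerase *Polrmt*, 0.31) were higher and 0 lower. Of 13 listed messenger RNAs encoded by mitochondrial DNA, only 7 passed the low-count filter, here and in the other comparisons. These 7 thus do not stand for all of them. Among the 7, *mt-Nd6* was lower (-0.66, adjusted p = 0.00757, edgeR), and of the 2 mitochondrial ribosomal RNAs 0 were called. Over all genes of this comparison, 3.45% were higher and 0.888% lower, and no test compared the lists with all genes. The list medians lay between -0.18 and 0.16, against 0.20 for the members. In VAT and liver edgeR called 0 genes of these lists, with 0.00527% and 0% of all genes called.

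On HFD in SAT, where 28.5% of all genes were higher and 29.6% lower, the lists differed among themselves, and no test compared them with the members. Of 14 regulators, 11 were lower and 0 higher, with a median of -0.46, among them the coactivators *Ppargc1b* (-1.27) and *Ppargc1a* (-0.85), *Myc* (-0.98), *Nrf1* (-0.56) and *Yy1* (-0.37). Assembly factors had 3 higher and 8 lower of 25 (*Mpv17l2*, 0.98, and *Fastkd2*, -0.56), synthetases 3 and 7 of 22 (*Mars2*, -0.82), and translation factors 5 and 4 of 15 (*Gfm1*, 0.44, and *Mtrf1l*, -0.52). Of the 5 other ribosomal subunits, *Aurkaip1* (0.52) and *Dap3* (0.35) rose and *Ptcd3* (-0.20) fell, and the median of this list was 0.27, against 0.25 for the members. *mt-Nd1* rose by 0.43 and the ribosomal RNA *mt-Rnr1* fell by 0.44.

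On HFD in VAT, 21% of all genes were higher and 23.2% lower, and the lists were not tested against these shares. Of 13 regulators, 1 was higher (*Esrra*, 0.31) and 5 were lower, with *Ppargc1b* at -1.10 and *Ppargc1a* at -0.91. Assembly factors had 0 higher and 8 lower of 25 (*Ngrn*, -0.70, *Trub2*, -0.62), translation factors 0 and 3 of 15 (*Mrrf*, -0.32), and synthetases 1 and 5 of 22 (*Mars2*, -0.50). *Aurkaip1* (0.27) and *Chchd1* (0.42) rose, and *mt-Cytb* (-0.66) and *mt-Nd5* (-0.56) fell. On HFD in liver, 20.6% of all genes were higher and 20.2% lower, again without a test of the lists. Synthetases had 8 higher and 1 lower of 22 (*Gatb*, 0.53, and *Gars*, -0.28). Assembly factors had 7 and 2 of 25 (*Rpusd3*, 0.41, and *Fastkd2*, -0.35), and translation factors 3 and 4 of 15 (*Taco1*, 0.45, and *Mtif2*, -0.41). *Dap3* (0.44) and *Gadd45gip1* (0.34) rose and *Ptcd3* (-0.16) fell. Of 13 regulators, *Esrra* (0.36) and *Myc* (1.0) rose and *Ppargc1a* (-0.61) and *Tfam* (-0.16) fell. *mt-Nd6* rose by 0.50 and *mt-Nd2* fell by 0.24.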

How the data were processed

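The authors deposited raw counts of reads per gene, 1 column for each of 62 libraries. Per the submitters' processing notes, reads were aligned with STAR 2.5.3a to mm10, and the study's methods name a stranded TruSeq kit, the Gencode M11 annotation and counting by STAR. No other sample columns were in the table (0). The RNA quality values, days to extraction and hidden factors of the study's model were not used here. Groups follow the labels.

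The members and lists were chosen with earlier results of these data known. Symbols and merged exon lengths came from GENCODE M21 (48349 of 48795 genes matched). EdgeR 4.0.16 (R 4.3.3) was run over all genes of a fit: filterByExpr on groups, TMM, quasi-likelihood tests, Benjamini-Hochberg adjustment, FDR of 10%. CPM used TMM library sizes within a tissue, TPM the exon lengths. The SE is the log2 fold change divided by the root of F. For marker scores the prior count was 2. The tests were checked on simulated data.

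Named are, for each of 6 comparisons, at most 10 called members per direction by smallest p, or 5 by smallest p where fewer were called, the 3 highest and 3 lowest by TPM, members left out by the filter, members against the sign of the family median in 5 or 6 comparisons, and called genes of each list, at most 5 by smallest p. The other members named for a group, for a difference between tissues or as an extreme were chosen after their values were seen. Alternatives were DESeq2's size factors, upper-quartile scaling, no low-count filter, DESeq2 1.42.0, limma-voom (limma 3.58.1), an FDR of 5%, the ribosomal RNA share, adipocyte or lymph node marker scores as covariates, dropping libraries from another flow cell or over 50% ribosomal RNA, and leaving out each library in turn. Chosen after seeing the data were leaving out libraries rich in muscle (over 1000 CPM), lymph node (over 100 CPM) or epididymis markers (over 1000 CPM), the HFD libraries alone, and leaving out single libraries in the fits within males on chow, within genotypes and between tissues.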

Additional observations from a re-analysis of the deposited data

Results flagged for a closer look

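The effect of HFD differed between tissues by the interaction test for 18 of the 77 tested members between VAT and SAT, for 21 between liver and SAT and for 23 between liver and VAT (edgeR, FDR of 10%). For VAT minus SAT, 3.9% of the members were higher and 19.5% lower, against 17.8% and 19.1% of all genes. For liver minus SAT these were 3.9% and 23.4%, against 15.5% and 12.2%. For liver minus VAT they were 18.2% and 11.7%, against 18.8% and 14.8%. The shares were not tested against each other. Of the members, *Mrpl20* had the smallest adjusted p in edgeR, 2.07e-05 for liver minus SAT, with a difference of -1.05 on the log2 scale. Of the 14 groups of 4 libraries, each tested on 3 sums over members (42 tests in all), 0 had a library set apart from the others by Dixon's test, where chance alone sets 1 library apart in about 20 groups.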

How the results depend on the processing

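No paired analysis was possible because the labels give no replicate numbers that groups share and do not link the tissues of a mouse. Of 1989 refits of the 71 changes of named members, 1777 kept direction and side of the threshold, 211 kept direction only, 1 passed the threshold newly and 0 reversed. For KO in SAT, 11 members called became 6 with upper-quartile scaling, 6 with no low-count filter, 18 in DESeq2, 4 at an FDR of 5%, 4 without the other flow cell, 2 with the adipocyte score, 6 with the lymph node score, 7 without muscle-rich libraries and 0 with HFD libraries alone. For KO in liver, DESeq2 called 1. For HFD in SAT, 49 became 25 with the lymph node score and 18 without lymph-rich libraries, a fit that kept no WT library on chow. The other planned counts were within 1.5 times of those reported, and the cause of these shifts was not tested.

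Leaving out 1 library gave 4 to 32 members for KO in SAT, 0 to 0 in VAT and 0 to 0 in liver, and 41 to 49, 19 to 30 and 26 to 34 for HFD in SAT, VAT and liver. For KO in SAT the count left the 1.5-fold range in 14 of 23 refits: 32 without female KO replicate 2, 4 without male HFD KO replicate 1 or WT replicate 1, 5 without female KO replicate 1, male chow KO replicate 2, male chow WT replicate 1 or 3 or male HFD KO replicate 3, and 6 without female KO replicate 4, female WT replicate 1, male chow KO replicate 1 or 3, male chow WT replicate 2 or male HFD WT replicate 3. It gave 16 to 44 for KO in SAT of males on chow. For HFD it gave 28 to 45 in SAT of WT, 13 to 27 in SAT of KO (13 without chow replicate 4 or HFD replicate 1), 10 to 20 in VAT of WT (10 without chow replicate 1 or 3), 1 to 4 in VAT of KO (1 without HFD replicate 1 or 2, 2 without chow replicate 3 or 4 or HFD replicate 3), 9 to 19 in liver of WT (9 without HFD replicate 4) and 7 to 11 in liver of KO (7 without HFD replicate 1). Between tissues it gave 12 to 19 for VAT and SAT, 12 to 22 for liver and SAT (12 or 13 in 12 of 32 refits, namely without liver chow KO replicate 3, liver HFD WT replicate 1 or 4, SAT chow KO replicate 3 or 4, SAT chow WT replicate 1, 2 or 3, SAT HFD KO replicate 1, 2 or 3, or SAT HFD WT replicate 3) and 17 to 28 for liver and VAT. Counts per library limit the lowest members most, such as *Mrps36* in liver.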
